A study of Rattus norvegicus with 6 samples.

Results

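The results concern 10 rat genes of the NRF2 antioxidant pathway in renal cortex: the transcription factor gene Nfe2l2, its inhibitor gene Keap1, and the target genes Nqo1, Hmox1, Gclc, Gclm, Txnrd1, Srxn1, Gsr and Slc7a11. Every probe whose RefSeq accession maps to one of these symbols was taken, which gave 19 probes for the 10 genes, of 28194 named probes for 15642 genes on the array. After a filter on dim probes, 9 of the 10 genes (16 probes) were tested among 11530 genes, and Slc7a11 was described only. The 3 treated animals were male Sprague-Dawley (Crl:CD(SD)) rats given ethylenediamine dihydrochloride at 500 mg/kg/day for 4 weeks, and the 3 reference animals were male rats of the same strain given water for 4 weeks. All were bought at 5 weeks of age and fed a basal diet. Ethylenediamine is a small diamine, and the comparison asks which cortical transcripts differ after repeated dosing. Each array carries Cy3-labelled cRNA from 1 animal, and replicates are animals.

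NRF2, the product of Nfe2l2, is held at a low level in resting cells by KEAP1, an adaptor that hands it to a ubiquitin ligase. Electrophiles and oxidants modify cysteines of KEAP1, NRF2 then accumulates, pairs with small MAF proteins and binds antioxidant response elements in the DNA of its target genes. The targets make glutathione, keep thioredoxin reduced, and detoxify quinones and heme, and in the kidney the proximal tubule, which takes up many filtered chemicals, is a well-known site of this response. Much of the control of NRF2 acts on the protein, which an array does not measure.

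The values below are log2 signals minus the 75th percentile of the array, so that 0 is the brightness at that percentile, and levels are compared only within a probe. Between 35691 and 40843 probes per array were well above background. The arrays lay on 2 slides: ethylenediamine replicate 1 and all 3 water arrays on slide 1, and ethylenediamine replicates 2 and 3 on slide 2. Ethylenediamine replicate 1 stood apart, with the fewest probes above background and the brightest dim probes. Probes dim on all 6 arrays had a median there of -6.53, against -7.48 and -7.55 on ethylenediamine replicates 2 and 3 and -7.51, -7.26 and -7.23 on the water arrays. Slide and treatment can be compared only through ethylenediamine replicate 1, whose difference from water is the estimate within slide 1 and also the estimate with slide as a block. Within slide 1 the treated group is 1 array, so the spread behind a p there comes from the 3 water arrays, and the lone array is assumed to vary like them. Markers of the proximal tubule were all measured (5 of 5), with a summed linear level of 896 to 900 in ethylenediamine rats and 914 to 937 in water rats. These sums did not overlap between the groups. Of the 5 genes, 2 were lower and 1 was higher without overlap, beside 8.27% and 9.2% of all genes tested.

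None of the 9 measured members passed the test between the groups. By limma, 0 of 9 passed an adjusted p of 0.05 over all genes tested, where the share of all 11530 genes was 0%, 0 of their 16 probes passed when each probe was tested alone, where the share of all probes was 0.0106%, and 0 of 9 had an unadjusted p under 0.05, where the share of all genes was 10.4%. The groups overlapped for all 9, while they did not overlap for 17.5% of all genes. Of the 9 log2 fold changes, 4 were positive and 5 negative, with a median of -0.03, beside a median of -0.00 over all genes tested. The members had no common direction, and their values are given one by one. A missed threshold does not show that the groups were alike, so each value has its interval. In bulk tissue, a change in the number of cells of a type and a change in the RNA per cell cannot be told apart.

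**Figure D1:**
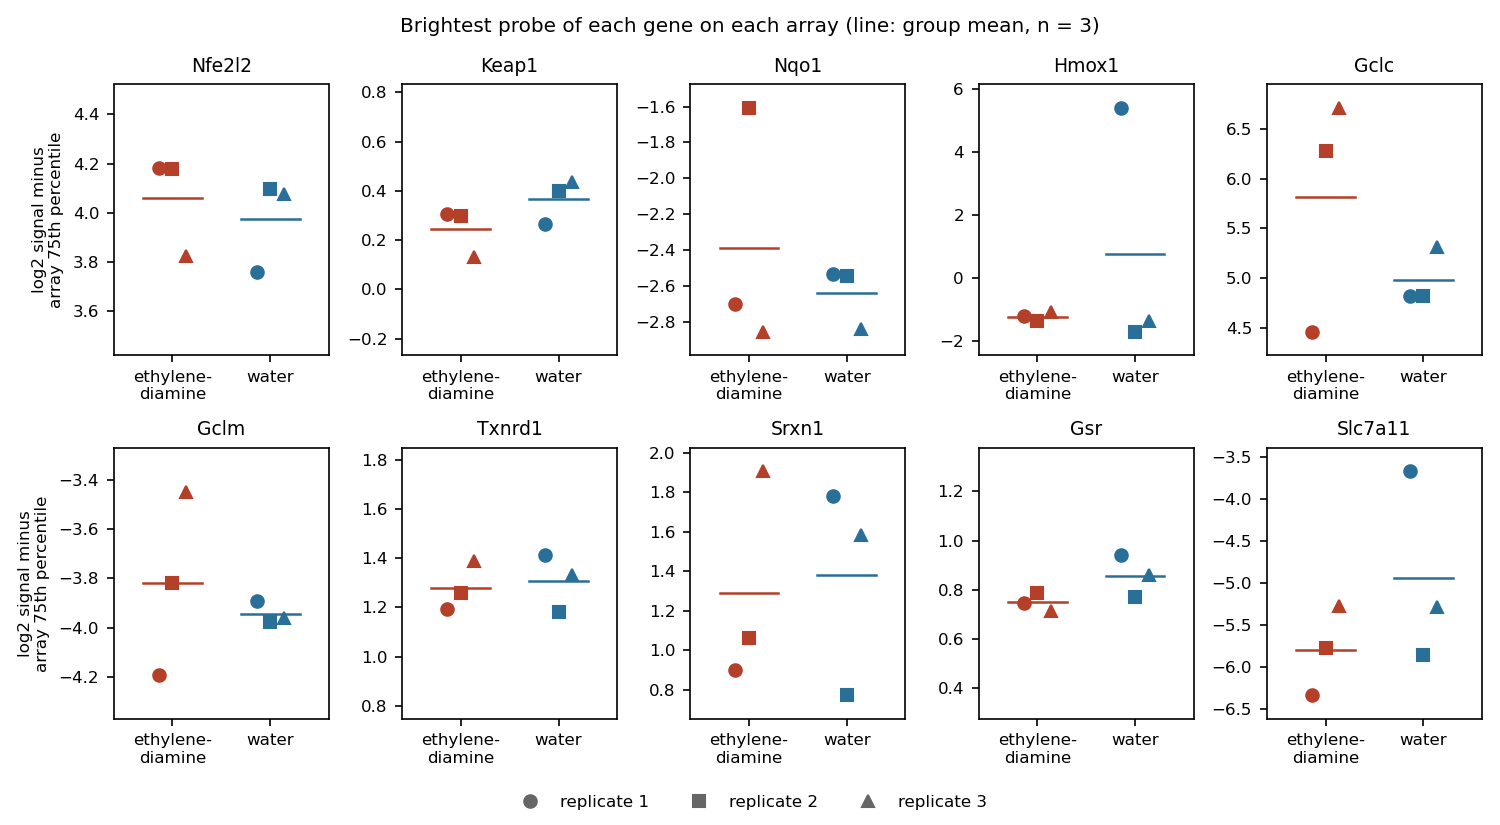
Each panel plots the brightest probe of 1 gene, as log2 signal minus the 75th percentile of the array (y axis, its own range in each panel), for the 3 ethylenediamine arrays (red, left) and the 3 water arrays (blue, right), with marker shape for the replicate and a line for the group mean (n = 3). Hmox1 is high on water replicate 1 alone (5.40), Gclc is high on ethylenediamine replicates 2 and 3 (6.28 and 6.71), and Slc7a11 was well above background only on water replicate 1.

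Nfe2l2 and Keap1 are the regulators of the pathway. Nfe2l2 stood at 4.18, 4.18 and 3.82 on ethylenediamine replicates 1 to 3, against 3.76, 4.10 and 4.07 on water replicates 1 to 3. The lowest array of each group lay well below the other two of that group, so the groups overlapped. The log2 fold change was 0.08 ± 0.14 (SE, n = 3 per group), with a 95% interval of -0.26 to 0.43 and an adjusted p of 0.853. The second probe of Nfe2l2 gave 0.08 ± 0.17, with the same arrays low. Without water replicate 1 the sign of Nfe2l2 turned, at -0.02, and within slide 1 it was 0.21. Keap1, measured by 1 probe, stood at 0.31, 0.30 and 0.13 in ethylenediamine rats, against 0.26, 0.40 and 0.43 in water rats. Its log2 fold change was -0.12 ± 0.08, with an interval of -0.32 to 0.07 and an adjusted p of 0.638, and -0.06 within slide 1.

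Both subunits of glutamate-cysteine ligase, which catalyses the rate-limiting step of glutathione synthesis, belong to the set. Gclc, the catalytic subunit, had the most uneven values of the treated group: 4.46, 6.28 and 6.71 on ethylenediamine replicates 1 to 3, against 4.82, 4.82 and 5.31 on the water arrays. Ethylenediamine replicates 2 and 3 lay above every water array, and ethylenediamine replicate 1 lay below every water array. The second probe of Gclc showed the same split, at -0.24, 1.61 and 2.19 in ethylenediamine rats and 0.10, 0.09 and 0.55 in water rats. Over all 6 arrays the log2 fold change of Gclc was 0.83 ± 0.59, with an interval of -0.62 to 2.29 that held 0 and an adjusted p of 0.662. The spread of the treated group followed the slides, so spread between animals and between slides cannot be told apart there.

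The treated arrays that set the sign of Gclc were those of slide 2. Within slide 1 the value was -0.53 (adjusted p = 0.673, and 0.734 with slide as a block). Without ethylenediamine replicate 1 it was 1.51 ± 0.21 (limma, unadjusted p = 0.000981, adjusted p = 0.136), within a range of adjusted p from 0.136 to 0.868 over its alternatives. That fit sets treated arrays of slide 2 against water arrays of slide 1, so slide and treatment cannot be told apart in it. The gap between the mean of ethylenediamine replicates 2 and 3 and replicate 1 was 2.04 on the log2 scale, and only 31 of 11530 genes (0.269%) had a gap as high or higher. Gclm, the modifier subunit, stood at -4.19, -3.82 and -3.45 in ethylenediamine rats, against -3.89, -3.98 and -3.96 in water rats. It followed the order of Gclc among the treated arrays over a smaller span. Gclm was close to background, and was not well above it on ethylenediamine replicate 1, so the place of that array in the order is uncertain. Its log2 fold change, which includes that array, was 0.12 ± 0.18, with an interval of -0.33 to 0.58 and an adjusted p of 0.834. Within slide 1 it lay lower in the treated animal, but the probe was not well above background on that array, so its exact size has no meaning.

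The genes most like Gclc over the 6 arrays were listed for comparison, after its values had been seen. Of 796 genes with a range at least 0.5 times that of Gclc, the 4 with the highest Pearson's r, from 0.991 to 0.996, were Slc7a13, Agt, Gucy1b2 and Aspg. Slc7a13, an amino acid carrier of the straight proximal tubule, stood at 2.26, 5.27 and 5.75 in ethylenediamine rats, against 2.87, 2.99 and 3.90 in water rats. Agt, the angiotensinogen gene, stood at -1.64, 1.33 and 2.05 in ethylenediamine rats, against -0.99, -1.34 and -0.51 in water rats. As for Gclc, the treated array of slide 1 was the lowest of all 6 and the treated arrays of slide 2 were the highest.

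Other genes known from the straight part of the proximal tubule, also chosen after the values were seen, did not all share this order. The organic anion carrier Slc22a7 stood at -4.42, -1.02 and -1.08 in ethylenediamine rats, against -3.78, -4.26 and -2.75 in water rats. Its probe was not well above background on ethylenediamine replicate 1, so its exact value there has no meaning. Slc3a1, the partner protein of Slc7a13, had an r of 0.985 with Gclc over a far smaller span, from 7.61 to 7.98 in ethylenediamine rats and from 7.67 to 7.72 in water rats. The glucose carrier Slc5a1 had an r of -0.71, the glutamate carrier Slc1a1 -0.08 and the glutamine synthetase gene Glul 0.34. These correlations rest on 6 arrays that share slides and are given as a description. The part of nephron segment, of slide and of treatment in the values of Gclc was not tested.

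**Figure D2:**
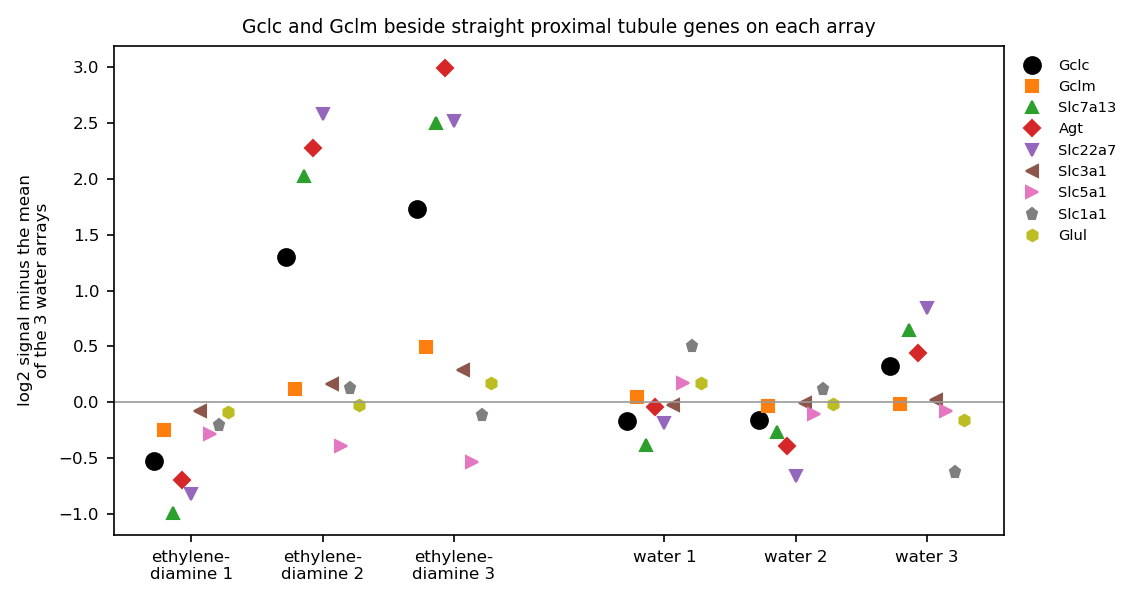
Log2 signal minus the mean of the 3 water arrays (y axis) for Gclc, Gclm and 7 genes known from the straight proximal tubule, on each ethylenediamine array (left) and each water array (right), with 1 point per gene and array. Gclc, Slc7a13, Agt and Slc22a7 lie below 0 on ethylenediamine replicate 1 and above 1 on replicates 2 and 3, while Slc5a1 lies below 0 on all 3. The probes of Slc22a7 and Gclm were not well above background on ethylenediamine replicate 1.

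Slc7a11, the cystine carrier that feeds glutathione synthesis, was not well above background. Of its 3 probes, 2 were not well above background on any array. The third stood at -6.33, -5.77 and -5.26 in ethylenediamine rats, against -3.67, -5.85 and -5.29 in water rats, and was well above background on water replicate 1 alone. No fold is given, since 1 of the 6 arrays measured it. Gsr, which returns oxidised glutathione to its reduced form, had the smallest range over the 6 arrays among the members, 0.229 log2, close to 0.230 for Txnrd1. It stood at 0.75, 0.79 and 0.71 in ethylenediamine rats, against 0.94, 0.77 and 0.86 in water rats, with a log2 fold change of -0.11 ± 0.06 and an interval of -0.27 to 0.05 (adjusted p = 0.609). Its value within slide 1 was -0.11 as well.

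The thioredoxin branch was represented by Txnrd1, the cytosolic thioredoxin reductase, and Srxn1, the sulfiredoxin that restores overoxidised peroxiredoxins. Txnrd1 had 4 probes, and its brightest stood at 1.19, 1.26 and 1.39 in ethylenediamine rats, against 1.41, 1.18 and 1.33 in water rats. The log2 fold change was -0.03 ± 0.09, with an interval of -0.24 to 0.18 (adjusted p = 0.925). The other 3 probes gave 0.01, -0.15 and -0.20, each with overlapping groups. Srxn1 stood at 0.90, 1.06 and 1.90 in ethylenediamine rats, against 1.78, 0.77 and 1.58 in water rats, so both groups held high and low animals. Its log2 fold change was -0.09 ± 0.37, with an interval of -0.99 to 0.81 (adjusted p = 0.948), and its second, far dimmer probe gave -0.50 ± 0.31. That second probe was not well above background on ethylenediamine replicate 1. Txnrd1 and Srxn1 ranked the 6 arrays almost alike, with an r of 0.979, the highest of all pairs of members, while the lowest was -0.87, between Nfe2l2 and Txnrd1. Both are descriptions over 6 arrays.

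Nqo1, a quinone reductase and a standard readout of NRF2, was high on 1 treated array. It stood at -2.70, -1.61 and -2.86 in ethylenediamine rats, against -2.54, -2.54 and -2.84 in water rats. Ethylenediamine replicate 2 lay above all other arrays and the other treated arrays lay inside or just below the range of water. The second probe showed the same single high array, at -4.13, -3.30 and -4.38 in ethylenediamine rats and -4.22, -4.22 and -4.18 in water rats. The log2 fold change was 0.25 ± 0.34, with an interval of -0.58 to 1.09 (adjusted p = 0.813). Without ethylenediamine replicate 2 it was -0.14, and within slide 1 it was -0.06, so the sign of Nqo1 rested on 1 animal.

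Hmox1, which encodes the heme oxygenase that opens the heme ring, was set by 1 spot. Its single probe stood at -1.22, -1.38 and -1.09 in ethylenediamine rats, against 5.40, -1.72 and -1.36 in water rats. In processed fluorescence units, this was 384, 342 and 454 in ethylenediamine rats, against 38444, 260 and 365 in water rats. Water replicate 1 was therefore 90.1 times as bright as the next array after scaling. Over all arrays the log2 fold change was -2.00 ± 1.92, with an interval of -6.73 to 2.72 (adjusted p = 0.736). Without water replicate 1 the sign turned, at 0.31 ± 0.15, with an interval of -0.07 to 0.69 (adjusted p = 0.641). The groups still overlapped, since ethylenediamine replicate 2 (-1.38) lay just below water replicate 3 (-1.36).

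The bright Hmox1 spot stood further above the other 5 arrays than any other probe used on water replicate 1. The probe has 1 spot, which carried no outlier flag and was not saturated, and its local background was 58, within the 54 to 70 of the other arrays. The 8 neighbouring spots differed from their mean on the other 5 arrays by -1.19 to 0.35 log2, against 6.76 for the Hmox1 spot. Of 61515 probes, Hmox1 was the only one on water replicate 1 that stood more than 6 log2 above each other array. Such jumps numbered 0 on water replicates 2 and 3, and 4, 1 and 0 on ethylenediamine replicates 1 to 3. On water replicate 1, 9 probes stood more than 4 above. That number was 11 and 20 on water replicates 2 and 3, and 143, 20 and 12 on ethylenediamine replicates 1 to 3. Biliverdin reductase Blvrb, the ferritin genes Fth1 and Ftl1 and the heme exporter of the lysosome Slc48a1 showed no such jump. Among the members, the brightest probes of Gsr and Txnrd1 were also highest on water replicate 1, at 1.06 and 1.02 times the next array. That of Slc7a11 was highest there too, and well above background only there. Those of Nfe2l2, Keap1, Nqo1, Gclc, Gclm and Srxn1 were highest on other arrays. Ftl1, picked with Fth1 after the values were seen, stood at 8.98, 9.08 and 8.98 in ethylenediamine rats, against 9.08, 9.03 and 8.95 in water rats. Of 12 macrophage markers, 9 were measured and Cd163, Marco and Vsig4 were not, and their summed linear level was 80.8 to 82.3 in ethylenediamine rats and 88.2, 68.0 and 94.4 on water replicates 1 to 3. Of 9 red blood cell markers, 7 were measured, with a sum of 643, 884 and 854 in ethylenediamine rats and 763, 605 and 607 in water rats. Their part in the Hmox1 value was not tested.

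**Figure D3:**
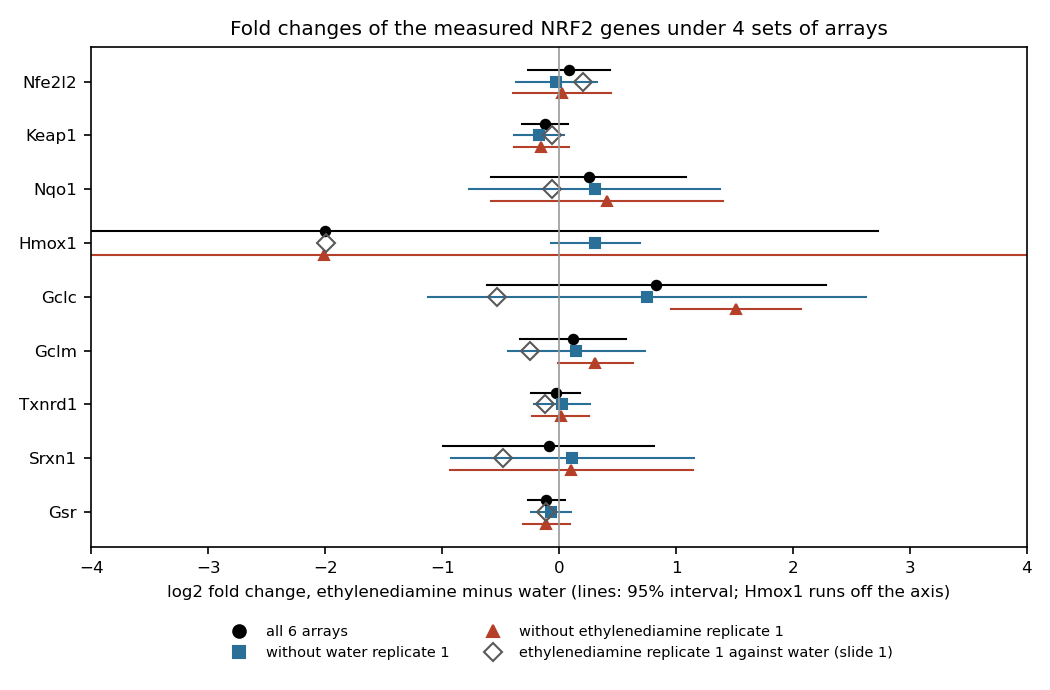
Log2 fold change, ethylenediamine minus water (x axis), of the 9 measured members with all 6 arrays (black circles), without water replicate 1 (blue squares), without ethylenediamine replicate 1 (red triangles) and for ethylenediamine replicate 1 alone against water on slide 1 (open diamonds). Lines are 95% intervals of the limma fit, and for Hmox1 those with water replicate 1 included run past the axis. The open diamond of Gclm rests on an array where its probe was not well above background. Hmox1 moves to 0.31 without water replicate 1, and the interval of Gclc lies above 0 only without ethylenediamine replicate 1. Without that array, all treated arrays lay on the slide that held no water array.

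The wider pathway was described with 6 further lists, 76 genes in all, of which 71 were measured. None passed an adjusted p of 0.05 by limma, and the lowest adjusted p was 0.303, for Gstp1. With the unadjusted p, 14 were higher below 0.05 and 2 were lower, beside 5.39% and 4.97% of all genes tested. The groups did not overlap for 18 that were higher and 5 that were lower, beside 9.2% and 8.27% of all genes. The values were uneven between lists. Most of the higher genes came from glutathione use (5 of 15) and detoxification (5 of 17), with 0 of 12 from the regulators, 2 of 12 from the thioredoxin system, 1 of 7 from NADPH supply and 1 of 8 from heme and iron. List medians were 0.18 for glutathione use and 0.19 for detoxification, beside -0.00 over all genes, and between -0.02 and 0.04 for the other 4.

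In glutathione use, the genes with the smallest p were Gstp1, Gpx2 and Glrx. Gstp1, a glutathione transferase, stood at 6.28, 6.77 and 6.72 in ethylenediamine rats, against 5.81, 5.58 and 5.66 in water rats, so the groups did not overlap. Its log2 fold change was 0.91 ± 0.15, and 0.60 within slide 1. Gpx2, an epithelial glutathione peroxidase, gave 1.35 ± 0.34 with an adjusted p of 0.342, and 1.55 within slide 1. Glrx, the glutaredoxin, gave 0.44 ± 0.13 with an adjusted p of 0.379, and 0.23 within slide 1. Slc3a2, the heavy chain that carries the Slc7a11 protein to the membrane, was the 1 gene of this list lower at an unadjusted p under 0.05, at -0.13 ± 0.05, and is named for that reason. Among these genes the treated array of slide 1 lay on the same side of water as those of slide 2. They were named for a small p over the same arrays, which favours such agreement. Gss and Ggt1, picked with values in view, split as Gclc did. Against the water mean, ethylenediamine replicates 1 to 3 gave -0.09, 0.41 and 0.58 for Gss. For Ggt1 they gave -0.05, 0.37 and 0.51, while Gpx1 and Gpx4 lay above the water mean on each.

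Detoxification genes were led by Abcc2, Akr7a3 and Akr1b8. Abcc2, an exporter of glutathione conjugates, stood at 2.29, 2.50 and 2.45 in ethylenediamine rats, against 2.05, 1.78 and 1.89 in water rats. Its log2 fold change was 0.50 ± 0.10, and 0.38 within slide 1. Akr7a3, an aflatoxin aldehyde reductase, gave 0.71 ± 0.16 and Akr1b8, an aldose reductase-like enzyme, 1.55 ± 0.36, with adjusted p of 0.329 and 0.330. In the thioredoxin list Prdx4, the peroxiredoxin of the endoplasmic reticulum, gave 0.28 ± 0.05, Txn1 (thioredoxin) 0.24 ± 0.06 and the peroxiredoxin Prdx5 -0.09 ± 0.05. Nnt and Idh1, which supply NADPH, gave -0.15 ± 0.07 and -0.53 ± 0.29. Of heme and iron genes, Blvrb gave 0.31 ± 0.09, Slc48a1 -0.17 ± 0.07 and the iron exporter Slc40a1 -0.22 ± 0.12. The regulators with the smallest p were Nfe2l1, a relative of NRF2, at 0.16 ± 0.10, the repressor Bach1 at -0.10 ± 0.07 and the KEAP1-binding protein Dpp3 at 0.08 ± 0.06.

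The counts moved with the arrays kept. Within slide 1, 3 glutathione genes and 3 detoxification genes were higher at an unadjusted p under 0.05, beside 8.37% of all genes in either direction, and with slide as a block 2 and 3, beside 7.63%. Without ethylenediamine replicate 1, 8 and 8 were higher and 0 and 1 lower, beside 13.5% of all genes in either direction. In that fit all treated arrays lay on slide 2 and all water arrays on slide 1, so slide and treatment cannot be told apart. Without water replicate 1, 4 and 5 were higher and 0 and 0 lower, beside 8.12% in either direction. The list medians on ethylenediamine replicates 1 to 3, each against the mean of the water arrays, were 0.05, 0.31 and 0.15 for glutathione use, 0.10, 0.26 and 0.25 for detoxification, and -0.12, -0.05 and -0.15 for the 9 core members. The earlier results of these data already showed Gstp1, Gpx2, Abcc2, Akr7a3 and Akr1b8 as higher, so these counts are no independent evidence of a direction. Markers of other cell types and of injury also had uneven levels. By summed linear level, smooth muscle (3 of 3 markers measured) was at 3.36 to 3.72 in ethylenediamine rats and 1.87 to 2.47 in water rats, and tubular injury (5 of 5) at 26.7 to 43.3 in ethylenediamine rats and 15.3 to 27.7 in water rats. Collecting duct (3 of 3) was at 147 to 173 in ethylenediamine rats and 211 to 251 in water rats, and distal tubule (3 of 3) at 16.7 to 24.6 in ethylenediamine rats and 24.2 to 29.9 in water rats. The sums of smooth muscle and collecting duct, and those of the proximal tubule given above, did not overlap between the groups. Those of tubular injury and distal tubule did. Gene by gene, all 5 tubular injury markers had a positive log2 fold change. By limma, 4 of the 5 were higher at an unadjusted p under 0.05, beside 5.39% of all genes. The groups did not overlap for 3 that were higher, beside 9.2% of all genes. The part of the cell type and injury markers in the values of the glutathione and detoxification genes was not tested. Whether the core members and the detoxification genes differ in their response was not tested.

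**Figure D4:**
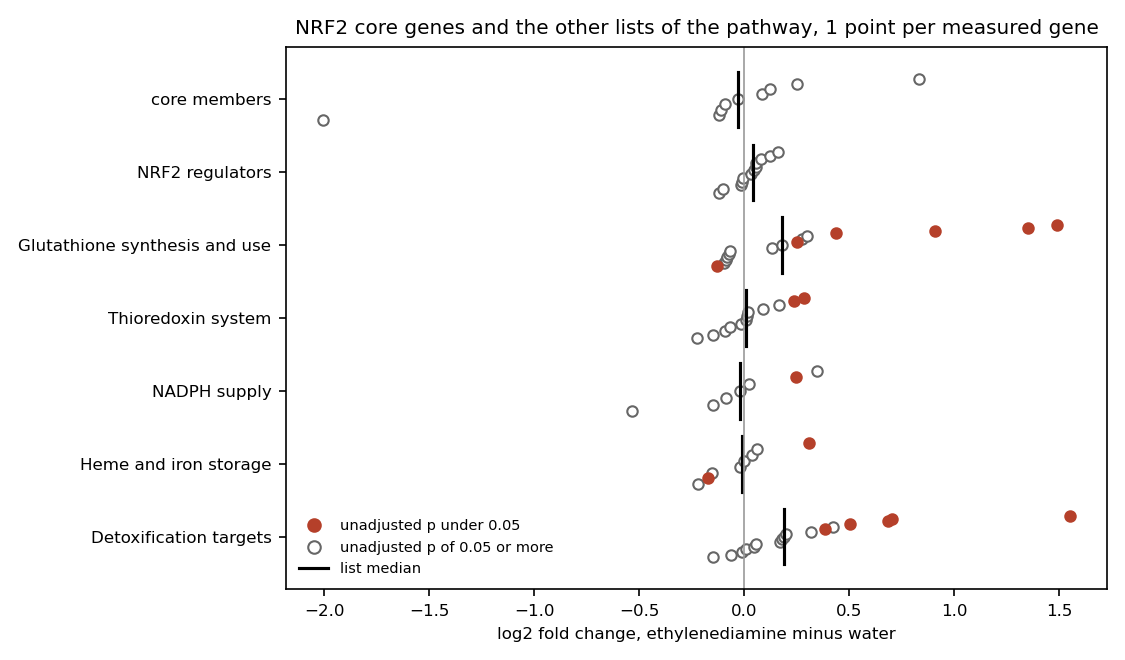
Log2 fold change, ethylenediamine minus water (x axis), of each measured gene in the core set and in 6 other lists of the pathway (rows), with filled points for an unadjusted p under 0.05 and a bar for the list median. The 9 core members hold no filled point, and the detoxification and glutathione lists hold 5 and 6.

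Antioxidant response elements carry the core TGACNNNGC, where N is any base, and this core was searched on both strands of the RefSeq promoter windows (build GRCr8, 250 bases before to 50 after the start). Windows were held for 8 of the 10 members, not for Hmox1 and Gsr, and 3 of the 8 had a match, against 13.1% of all 27457 genes with a window. Matches lay before the start in Gclm and in 1 of 2 windows of Txnrd1, and after the start in Nfe2l2. Of the other pathway lists, 18 of 65 genes with a window (27.7%) had a match, among them Gstp1 and Gpx2. The matched stretches of 2 members whose groups overlapped and of 2 genes whose groups did not are shown for comparison, 5′ to 3′ on the strand of the gene and ending at the start where they reach it, with the core, or its reverse complement in all but Gstp1, in capitals:
Gclm, chr2:213031943-213031991, + strand: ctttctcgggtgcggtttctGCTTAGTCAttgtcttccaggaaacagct
Txnrd1, chr7:22755954-22756002, - strand: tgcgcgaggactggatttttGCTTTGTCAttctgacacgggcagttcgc
Gstp1, chr1:210769738-210769786, - strand: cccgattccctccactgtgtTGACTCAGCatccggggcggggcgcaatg
Gpx2, chr6:101230034-101230066, - strand: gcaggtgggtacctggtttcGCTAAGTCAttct
The match lay 172 bases before the start in Gclm, 78 in Txnrd1, 61 in Gstp1 and 13 in Gpx2. A match is a string of letters in a short window and not a measured binding site, and many known elements lie farther from the start. The Gclc, Nqo1, Keap1, Srxn1 and Slc7a11 windows held no such letters, from which nothing is drawn about NRF2.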

How the data were processed

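Renal cortex RNA of 6 rats was measured on 1-colour Agilent arrays. Per the file headers, Agilent Feature Extraction 10.7.1.1 wrote the deposited intensity of each spot after subtracting background and a spatial trend, without scaling arrays to each other, and the probe grid is of build rn4. The authors' second table holds a deposited linear signal that, set against the scanner values, equals the authors' intensity divided by a constant near the 75th percentile of each array, within 2% for 100% of probes. Its column medians were 0.1062, 0.1104 and 0.1071 for ethylenediamine replicates 1 to 3 and 0.1076, 0.1052 and 0.1046 for water replicates 1 to 3, and it served only as an alternative.

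Here log2 intensity minus the 75th percentile of the array was used. Control spots (1439) and 22 flagged probes were left out, and no spot was saturated. Symbols came from RefSeq accessions through GRCr8 names, which left 33321 of 61515 probes unnamed. A probe was kept if well above background on all 3 arrays of a group, and the brightest kept probe stood for a gene. The test was limma 3.58.1 under R 4.3.3 (lmFit and eBayes, Benjamini-Hochberg over 11530 genes, threshold 0.05, 4 residual and 1.84 prior degrees of freedom), checked on simulated data. The number of arrays limits the precision.

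The members, the lists and the tests were chosen with earlier results of these data known. Named by rule were the 10 members and, in each list, the 3 genes with the smallest p, and, for Hmox1, Nqo1, Slc7a11 and Nfe2l2, the 4 most similar genes. One gene that the rule names is not reported here. Further genes are marked as picked with values in view. The alternatives were normexp background (offset 50, run on median spot and background signals in place of the mean signals that were planned), median and quantile scaling, the deposited table, dropping the filter or asking for all 6 arrays, single probes, the mean of the probes, robust, trended and array-weighted fits, slide as a block, slide 1 alone, a replicate block and leaving out each array.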

Additional observations from a re-analysis of the deposited data

How the results depend on the processing

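No member passed the adjusted threshold by limma under any alternative run, single probes included. Gclc without ethylenediamine replicate 1, where slide and treatment coincide, had an unadjusted p under 0.05. So did Gclm within slide 1, where the treated group is 1 array on which its probe was not well above background, so that p is not used, and with slide as a block its p was 0.177. The sign turned for Nqo1, Gclc and Gclm within slide 1 and with slide as a block, for Nqo1 without ethylenediamine replicate 2, for Gclm without ethylenediamine replicate 3 (-0.06), for Nfe2l2 and Hmox1 without water replicate 1, for Txnrd1 under 2 and for Srxn1 under 4 of the single-array omissions, and for Keap1 and Gsr under none. The cause was not tested.

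Over all genes, 0 were higher and 0 lower. With slide as a block 10 were higher, within slide 1, 5 higher and 1 lower, with an intensity trend 1 lower, and with every probe tested alone 4 higher. Leaving out 1 array gave 0 to 1 higher and 0 to 0 lower, 1 being reached without water replicate 2 and without ethylenediamine replicate 1. The groups share replicate numbers, but same-numbered arrays did not deviate together (r of -0.00304, 0.0224 and -0.00797), and the replicate block gave 0 genes.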

Other observations

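For the members named by the rule, the genes with the most similar pattern over the 6 arrays were listed, with no p. For Nqo1, of 2454 genes with a range at least 0.5 times its own, the highest r, from 0.952 to 0.976, were those of Atxn1, Acvr2b, Asb16 and Pmm1. Asb16 stood at -3.19, -1.30 and -3.37 in ethylenediamine rats, against -3.04, -2.98 and -3.05 in water rats, so it too was high on ethylenediamine replicate 2 alone. For Nfe2l2, of 8492 such genes, they were Rhbg (0.992), Firrm (0.988), Zwint (0.980) and Incenp (0.978). Incenp, a chromosomal passenger protein of dividing cells, stood at 1.49, 0.88 and -0.93 in ethylenediamine rats, against -1.04, 0.54 and 0.63 in water rats. Its 2 low arrays are those on which Nfe2l2 was low. For Hmox1, of 47 such genes, the highest r was that of Matn1 (0.883), which stood at -2.39, -3.65 and -1.90 in ethylenediamine rats, against 0.01, -3.14 and -3.70 in water rats. The next, Cryga, Crygd and Inmt, had r of 0.560, 0.559 and 0.478. Slc7a11 was not measured and was given no such list.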
